A study of Mus musculus with 51 samples.

Results

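Oxidative phosphorylation genes encoded in the nucleus were followed here in mouse embryos and embryonic stem cells labelled as knocked out or knocked down for LoNA, a long nucleolar non-coding RNA. They were taken as every protein_coding gene whose symbol begins with Ndufa, Ndufb, Ndufc, Ndufs, Ndufv, Uqcr, Atp5, Cox4 to Cox8 or Sdha to Sdhd, a rule on names alone. This gave 96 of the 37525 genes in the 5 RNA tables. They were 36 of complex I, 4 of complex II, 8 of complex III, 18 of complex IV (with Ndufa4 and Ndufa4l2, a complex IV subunit and its relative), 15 of complex V, and 15 assembly factors or related genes. All 96 stood in the 18h, 20h and mESC tables, 95 in the 22h table, which has no Cox7b2, and 83 in the 24h table.

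Complexes I and II pass electrons from NADH and succinate to ubiquinone, complex III passes them to cytochrome c and complex IV to oxygen, and complex V, the ATP synthase, uses the proton gradient that complexes I, III and IV build. Complex II is also an enzyme of the TCA cycle, and its subunits are all nuclear, whereas the other complexes combine nuclear subunits with ones encoded in mitochondrial DNA. The cleaving embryo carries mitochondria inherited from the oocyte and relies on pyruvate and their respiration before it turns to glycolysis. Several complex IV subunits exist as isoform pairs with a common form and one restricted to muscle, testis or low oxygen.

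The embryos were C57BL/6, labelled control or LoNA KO (knockout) and collected at 18h, 20h, 22h and 24h, and the cells were mouse embryonic stem cells labelled 2C-like, for a state resembling the two-cell embryo, as control or LoNA KD (knockdown). RNA was measured by sequencing, and H3K27me3, H3K4me3 and acetylated NPM1 (AcNPM1) by in situ chromatin profiling of 24h embryos, AcNPM1 also in KO embryos given a p300 inhibitor. For RNA the labels list 4 samples per embryo group and 3 per mESC group. The RNA tables hold 3 columns per group at 18h, 20h and 22h, 4 at 24h and 2 for mESC. At 24h the RNA columns of a group formed near-identical pairs and were summed to 2 libraries. For chromatin the labels list 3 samples per AcNPM1 group and 1 per group of each histone mark, with 1 column per group. Nothing in the labels says which embryos, clones or cultures the libraries came from, so p-values measure only the spread between these libraries. No row of the tables is named LoNA, so its loss was not checked here.

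Totals per library ran from about 12077500 to 18286900 counts. In 18h controls 6 two-cell markers summed to 892 to 1609 CPM and 6 fibroblast markers, of which 4 were listed, to 0.474 to 5.58, where CPM is the count scaled to library size as counts-per-million. In the control mESC, 6 stem cell markers such as Pou5f1 summed to 3563 to 3576 CPM and the two-cell markers, of which 5 were listed, to 5.91 to 6.14, so the markers of the two-cell state were near 0 in cells labelled 2C-like. In KD the stem cell markers summed to 1806 to 1833 CPM and the two-cell markers to 2.51 to 2.68, and their part in what follows was not tested. Levels are not compared between genes, because the counts are not per transcript length.

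Promoters were examined first, for the same 96 genes with each chromatin mark. H3K4me3, a mark of active promoters, had a peak within 1000 bases of the annotated gene start at 91 of the 96 genes (94.8%), against 68.2% of 19983 protein_coding genes. The 5 without one were Cox6a2, Cox7b2, Cox8c, Ndufa4l2 and Atp5g2. The nearest peak to Atp5g2 lay 1051 bases from the start in the RNA table and covered the start given by RefSeq. For the muscle isoform Cox6a2 the nearest peak was 6653 bases away, for Cox7b2 7780 and for Cox8c 20561. Median peak height at the members was 17.7 RPM (reads-per-million of the total reads of the condition) in control embryos, against 14.9 over the protein_coding genes with a peak.

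RefSeq promoter windows of 300 bases (250 before the start to 50 after, GRCm38.p6) were found for 77 of the 96 genes and searched on both strands for 6 motifs. The palindromic core bound by NRF1, a regulator of respiratory genes, which is the first run of capitals in the Cox6a1 window, was in 7 of the 77 windows (9.09%) and in 0.971% of all 32851 windows, which include several per gene. Its shorter form GCATGCGC, which the core contains on both strands, was in 12 (15.6%, against 2.71%). The ETS motif CCGGAAG of the GABP type was in 20 (26.0%, against 8.86%) and the YY1 motif AAGATGGCG in 7 (9.09%, against 1.40%). The CCAAT box CCAAT was in 34 (44.2%, against 37.4%) and the TATA box TATAAA in 7 (9.09%, against 13.6%). The median window held 20 CpG dinucleotides, against 7 over all windows.

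The windows below run from 200 bases before the start to 30 bases into the transcript, 5′ to 3′ on the gene's strand, with every match to the short NRF1, ETS, YY1, CCAAT or TATA motifs in capitals. Cox6a1 (chr5:115348929-115349158, minus strand), Atp5k (chr5:108434370-108434599, minus strand) and Sdhb (chr4:140961071-140961300, plus strand) are shown as promoters that hold NRF1 and ETS matches together. Cox6a1 encodes the common form of a complex IV subunit, Atp5k a small membrane subunit of ATP synthase, and Sdhb the iron-sulphur subunit of complex II.
Cox6a1: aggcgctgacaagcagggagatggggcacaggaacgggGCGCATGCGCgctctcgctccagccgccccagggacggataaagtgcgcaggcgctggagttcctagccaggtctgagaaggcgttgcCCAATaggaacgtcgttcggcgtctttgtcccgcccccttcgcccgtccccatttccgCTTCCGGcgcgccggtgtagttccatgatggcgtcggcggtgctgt
Atp5k: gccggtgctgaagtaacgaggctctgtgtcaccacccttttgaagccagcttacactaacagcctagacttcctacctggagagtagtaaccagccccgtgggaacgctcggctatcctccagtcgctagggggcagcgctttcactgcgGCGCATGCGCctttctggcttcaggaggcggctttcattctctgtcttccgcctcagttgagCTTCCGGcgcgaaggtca
Sdhb: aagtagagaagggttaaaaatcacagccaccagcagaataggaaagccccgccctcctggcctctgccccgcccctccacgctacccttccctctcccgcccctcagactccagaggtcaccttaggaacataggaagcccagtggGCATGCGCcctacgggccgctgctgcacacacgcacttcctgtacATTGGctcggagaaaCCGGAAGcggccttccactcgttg
Ndufs5 (chr4:123718157-123718386, minus strand), the complex I gene with the highest log2 change in KD cells below, and Cox5b (chr1:36691287-36691516, plus strand), the gene with the lowest KO-to-control ratio of H3K4me3, held no match in the windows printed.
Ndufs5: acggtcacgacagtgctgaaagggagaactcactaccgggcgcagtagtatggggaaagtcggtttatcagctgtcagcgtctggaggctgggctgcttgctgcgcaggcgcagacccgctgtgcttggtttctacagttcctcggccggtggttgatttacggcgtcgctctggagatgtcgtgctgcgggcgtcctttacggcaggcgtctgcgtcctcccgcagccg
Cox5b: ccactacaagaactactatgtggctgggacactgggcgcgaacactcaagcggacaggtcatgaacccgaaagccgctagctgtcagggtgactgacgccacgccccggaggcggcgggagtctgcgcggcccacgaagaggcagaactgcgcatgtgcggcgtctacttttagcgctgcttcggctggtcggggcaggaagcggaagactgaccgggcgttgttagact
Cox7b (chrX:106015500-106015729, plus strand) and its testis isoform Cox7b2 (chr5:71548176-71548405, minus strand) are set side by side because a peak of H3K4me3 stood at the first and not at the second. Both printed windows had CCAAT matches, 1 in Cox7b and 3 in Cox7b2.
Cox7b: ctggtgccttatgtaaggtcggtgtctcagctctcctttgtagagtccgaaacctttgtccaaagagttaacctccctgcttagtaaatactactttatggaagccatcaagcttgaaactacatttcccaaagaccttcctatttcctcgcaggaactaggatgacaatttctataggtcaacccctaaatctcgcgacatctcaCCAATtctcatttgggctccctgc
Cox7b2: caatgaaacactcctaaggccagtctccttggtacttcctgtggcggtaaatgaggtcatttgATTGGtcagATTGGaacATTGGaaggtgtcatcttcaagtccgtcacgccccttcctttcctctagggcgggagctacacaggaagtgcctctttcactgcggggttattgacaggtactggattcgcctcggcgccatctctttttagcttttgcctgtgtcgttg
The Cox7b window held 5 CpG dinucleotides. Its peak, 326 bases wide, held the fewest reads of the 91, at 132 in control (1.98 RPM) and 83 in KO (1.67 RPM). The log2 ratio was -0.25, with a 95% interval from -0.66 to 0.16 that covers counting error only, as do all intervals here.

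H3K4me3 in KO embryos was within 2-fold of control at every one of the 91 promoters (0 past 2-fold, against 0.0367% of promoter peaks of protein_coding genes). There was 1 column per condition, with totals of 66601350 control and 49648616 KO reads, so no difference here has a replicate check. The median log2 ratio was -0.15 for the members and -0.13 for the protein_coding genes, and 90.1% and 78.3% of them lay below 0. Cox5b, a peripheral complex IV subunit, had the lowest ratio, from 15.6 to 10.9 RPM (log2 -0.52, 95% interval -0.67 to -0.37). Ndufa5, an accessory complex I subunit, had the highest, from 17.4 to 19.3 (log2 0.15, 0.03 to 0.28). Highest in control RPM were the peaks of Uqcrh (45.0 RPM in control and 41.3 in KO) and Cox6b2 (44.6 and 34.97). Next came those of Ndufa13 (43.7 and 35.9), Ndufaf3 (42.0 and 39.1) and Ndufa11 (40.3 and 36.0). All 5 were lower in KO, as were 82 of the 91.

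**Figure D1:**
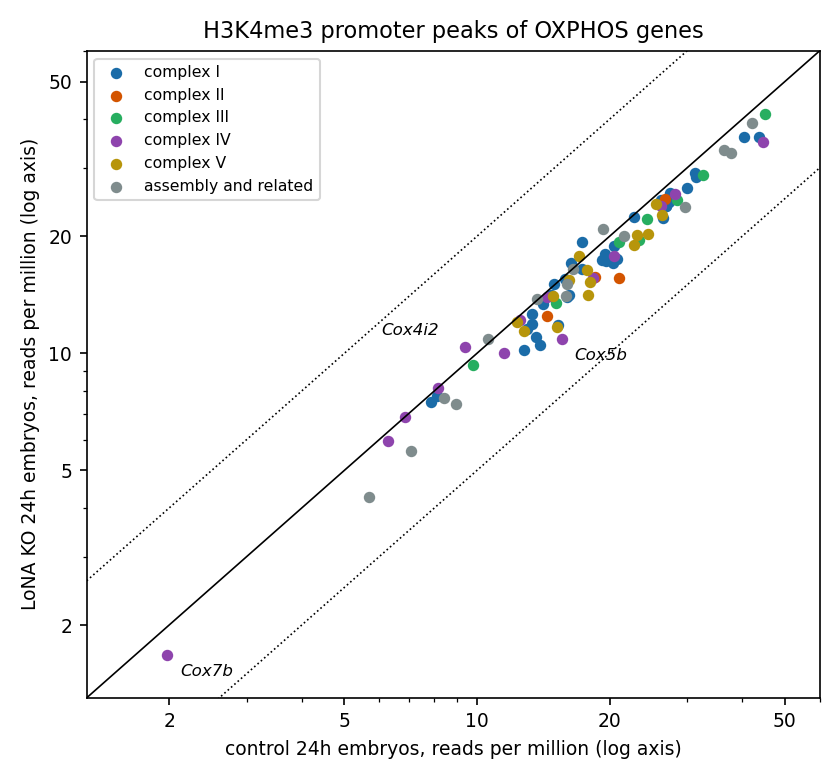
H3K4me3 at the promoter peaks of 91 oxidative phosphorylation genes, as RPM in control (x, log axis) and LoNA KO (y, log axis) 24h embryos, 1 point per gene. The solid line marks equal values and the dotted lines 2-fold either way. Every point lies between the dotted lines, with Cox5b lowest against control and Cox7b at the lowest RPM.

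H3K27me3, the mark laid down by PRC2, was present at the promoters of 2 members, against 15.6% of protein_coding genes. Both belong to complex IV. At Cox4i2, the low-oxygen isoform of subunit 4 (gene start chr2:152754173, peak chr2:152753767-152754714, mm10), 155 control reads and 222 KO reads gave 3.28 and 4.43 RPM (log2 0.43, 95% interval 0.13 to 0.74). Cox4i2 also had an H3K4me3 peak of 9.38 RPM in control and 10.4 in KO. At the testis isoform Cox8c (peak chr12:102899119-102899681, mm10) the counts were 95 and 83 (log2 -0.28, -0.72 to 0.16). Neither passed 2-fold, which 0.064% of promoter peaks of protein_coding genes did. AcNPM1 had no promoter peak at any of the 96 genes in the comparison of KO with control, where 13.9% of protein_coding genes had one. In the table of KO embryos with and without the p300 inhibitor, which shares its KO column with the other, only Cox8c had one (chr12:102899207-102899600, mm10), against 16.3% of protein_coding genes. Its reads were 95 without and 52 with the inhibitor (log2 -0.20, -0.71 to 0.31). The other 94 genes had no promoter peak of H3K27me3 or AcNPM1.

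Control embryos of different times differed in the summed transcripts of these genes. In 1 fit over the 18h, 20h and 22h tables, the 18h controls had 3780 ± 234 summed CPM over all members, the 20h controls 6057 ± 894 and the 22h controls 4498 ± 750 (SD, n = 3 each). Complex IV had 871 ± 238, 1679 ± 479 and 715 ± 293 in the same order. Complex II had 299 ± 72.2, 369 ± 65.3 and 550 ± 35.6, and every 22h control (512 to 583) lay above every earlier one (215 to 435). Complex V lay between 738 and 1023 in all 9 controls. These sums were not tested. Each time has its own table, so time and any batch of the tables cannot be told apart, and in these bulk samples fewer cells and less RNA per cell cannot be told apart either.

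**Figure D2:**
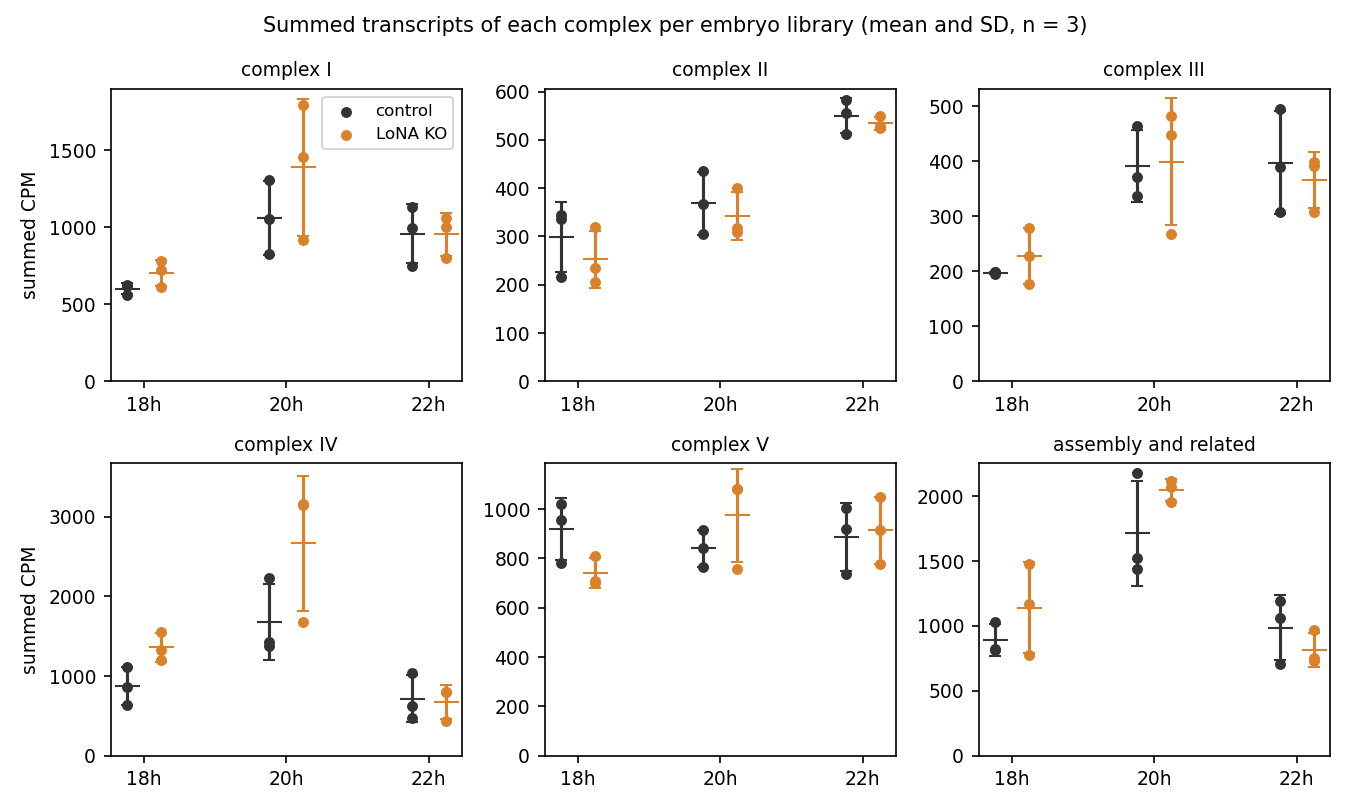
Summed CPM of the genes of each complex (y, linear from 0) in each 18h, 20h and 22h library (x), control in black and LoNA KO in orange, with the mean and SD of 3 libraries. Complex IV sums 1679 in control at 20h against 871 and 715 at 18h and 22h, and complex II is highest at 22h. KO and control of complex I overlap at 18h, 20h and 22h.

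From 18h to 20h, 77 of 94 tested members had a positive log2 change in control embryos, with a median of 0.76 against -0.07 over all 18992 genes tested. All 16 tested complex IV genes were among them. None passed an adjusted p of 0.05 in edgeR's quasi-likelihood test, which 0.753% of all genes did, although 30 had an unadjusted p under 0.05 (against 14.9% of all genes) and DESeq2 called 20 (against 5.21%). The lowest adjusted p was 0.0512, for Cox6a2, whose CPM was 10.7, 13.4 and 17.0 in 18h controls and 76.1, 36.8 and 29.6 in 20h controls. The ranges did not overlap. Without 1 library the count of 0 became 6 (without KO replicate 2 or 3 of 18h), 3 (KO replicate 1 of 20h), 2 (control replicate 2 of 20h) or 1 (KO replicate 1 of 18h).

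From 20h to 22h, 26 of 94 had a positive change, with a median of -0.52 against -0.03 over all genes, and 1 of the 16 complex IV genes did. Here 3 members were called, against 2.94% of all genes, and DESeq2 called 14, against 7.79%. Cox6a2 fell to 11.97, 10.7 and 9.44 CPM (log2 -2.15, SE 0.43, adjusted p 0.0124 in edgeR), below every 20h library. Cox8a, the common form of the smallest complex IV subunit, fell from 433, 439 and 384 CPM to 133, 144 and 206 (log2 -1.38, SE 0.31, adjusted p 0.0221). Uqcrfs1, the Rieske iron-sulphur protein of complex III, rose from 1.45, 5.04 and 0.334 CPM to 15.2, 16.1 and 14.8 (log2 2.75, SE 0.72, adjusted p 0.0409). No 20h library reached the 22h range. Without control replicate 1 of 20h, or replicate 1 or 2 of 22h, no member was called, and the count was 5 or 6 without several others (control replicates 2 and 3 of 20h, control replicate 3 of 22h, KO replicates 1 and 3 of 18h, KO replicate 1 of 20h).

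From 18h to 22h 2 members were called, both higher, against 1.58% of all genes. Sdhd, a membrane anchor of complex II, rose from 41.6, 47.4 and 41.4 CPM to 201, 116 and 111 (log2 1.71, SE 0.40, adjusted p 0.0323 in edgeR). The 18h and 22h ranges of Sdhd did not overlap. It was not called without any 1 of the 3 controls of 18h, or without control replicate 1 or 2 of 22h, where its adjusted p in edgeR ran from 0.0517 to 0.196. The count of members called was 0 without control replicate 1 or 3 of 18h or control replicate 1 or 2 of 22h, and 1 without control replicate 2 of 18h or without the KO libraries.

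Single genes had ranges of their own. Ndufaf4, an assembly factor of complex I, gave 461 to 631 CPM in 18h controls, 831 to 1411 in 20h and 360 to 684 in 22h controls. Ndufa10, an accessory subunit of complex I, gave 140 to 198, 227 to 541 and 269 to 422. Atp5b, the catalytic subunit of ATP synthase, gave 375 to 566 CPM, 155 to 311 and 261 to 433. Its partner Atp5a1 gave 84.2 to 123, 69.1 to 126 and 185 to 236, so all 22h libraries were above the earlier ones. Ndufv1, which takes electrons from NADH, gave 0.182 to 3.45, 0 to 2.52 and 6.39 to 12.03. None of these passed 0.05 in any of the control contrasts. Whether the KO effect differed between 18h, 20h and 22h was tested directly: 0 of 94 members passed 0.05 (0 of all genes did, 0%), 6 had an unadjusted p under 0.05, against 6.27% of all genes, and DESeq2 called 1, against 0.079%.

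LoNA KO was compared with control within each time to ask whether these transcripts differed between the 2 groups. No member was called by edgeR at 18h (of 92 tested, against 0.00649% of all genes), 20h (of 92, 0.0138%), 22h (of 92, 0.00656%) or 24h (of 69, 0%). DESeq2 called none at 18h (0.415% of all genes), 20h (0.151%) and 22h (0.0328%) and 2 at 24h (5.47%). By edgeR 5, 7, 1 and 3 members had an unadjusted p under 0.05, against 5.14%, 3.66%, 3.15% and 5.16% of all genes. Summed CPM of all members was 3723 ± 256 in control and 4463 ± 323 in KO at 18h, and 6020 ± 727 and 7533 ± 1669 at 20h (SD, n = 3). At 22h it was 4654 ± 821 and 4378 ± 616. At 24h it was 5990 ± 1388 and 7022 ± 901 (n = 2). Values in these paragraphs are on the scale of each table and differ slightly from those of the fit over 3 tables.

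At 18h complex IV stood out by count, with 14 of its 16 tested genes above 0 and a median log2 change of 0.65, against -0.02 over all genes. Its summed CPM was 1195, 1577 and 1341 in KO and 849, 624 and 1105 in control, which did not overlap. Cox5a, a peripheral subunit, was at 73.7, 113 and 75.5 CPM in KO and 25.2, 33.7 and 47.1 in control. Its log2 change was 1.31 (SE 0.35, adjusted p 0.744 in edgeR). Cox5b was at 171, 273 and 208 against 98.4, 86.7 and 135 (log2 1.03, SE 0.31, adjusted p 0.744). For both, every KO library was above every control. Of the 92 tested members 6 had all KO libraries above all controls and 3 all below, where 5.79% and 7.04% of all genes did.

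Positive changes were 18 of 35 in complex I, 5 of 8 in complex III and 8 of 15 in complex V at 18h. All 4 complex II genes had a negative change, with a median of -0.21, and their sums overlapped (206 to 322 CPM in KO, 214 to 337 in control). Uqcrfs1 was at 1.53, 1.77 and 0.729 CPM in KO and 7.42, 14.4 and 5.58 in control (log2 -2.76, SE 0.78, adjusted p 0.744), with every KO library below. Atp5k was at 9.19, 20.5 and 10.7 against 3.39, 3.33 and 5.78 (log2 1.69, SE 0.59, adjusted p 0.831), with every KO library above. Mitochondrially encoded subunits, which meet these proteins in the same complexes, had a positive change in 12 of 13 at 18h, with a median of 0.80 and 0 called. Their sums overlapped, at 28340 to 81229 CPM in KO and 23736 to 51890 in control. Of 16 TCA cycle genes 3 had a positive change.

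At 20h, 73 of 92 tested members had a positive change, with a median of 0.48 against -0.03 over all genes. The median was 0.73 without control replicate 1, 0.30 without control replicate 2 and 0.40 without control replicate 3. Without KO replicate 1, 2 or 3 it was 0.66, 0.42 or 0.29. In complex I they were 31 of 36, in complex III 6 of 8, in complex IV 11 of 15 and in complex V 12 of 15, while complex II had 2 of 4. Summed over all members, the KO libraries had 5657, 8085 and 8855 CPM and the controls 6725, 5274 and 6062. By this sum KO replicates 2 and 3 lay above the controls and KO replicate 1 within them. The sum weighs highly counted genes most, so it does not show which libraries carried the positive changes. Cox6b1, the common form of a subunit that joins the complex IV dimer, was at 46.0, 91.5 and 99.9 CPM in KO and 48.5, 20.8 and 45.9 in control (log2 1.04, SE 0.43, adjusted p 0.998 in edgeR). It overlapped through KO replicate 1. Atp5j, a stalk subunit of ATP synthase, did not overlap, at 13.6, 16.0 and 22.5 against 6.62, 6.74 and 12.01 (log2 1.04, SE 0.54, adjusted p 0.998). Uqcrfs1, below control in every KO library at 18h, was at 8.40, 4.89 and 11.1 CPM in KO and 1.39, 5.11 and 0.338 in control (log2 1.83, SE 1.03, adjusted p 0.998), which overlap, and the log2 change was 3.21 without control replicate 2. Cox4i2, the gene with H3K27me3, was below control in every KO library at 20h (0.695, 0.661 and 0.141 CPM against 3.97, 1.06 and 2.28, adjusted p 0.998) and at 18h (0.245, 0.768 and 0 against 0.947, 0.772 and 1.09, adjusted p 1), and overlapped it at 22h. Of the 92 tested members 9 had all KO libraries above all controls and 2 all below, against 4.65% and 5.22% of all genes.

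At 22h, 35 of 92 tested members had a positive change. The median was -0.13 against -0.0021 over all genes, and it was 0.11 without control replicate 3, -0.32 without control replicate 2, -0.24 without KO replicate 3 and -0.02 without KO replicate 1. Ndufs7, a core complex I subunit, was above control in every KO library (8.18, 8.14 and 13.4 CPM against 4.36, 5.05 and 6.84, log2 0.87, SE 0.44, adjusted p 1 in edgeR), 1 of 4 such members, against 4.73% of all genes, while none had every KO library below, against 4.5%. Sdhd was at 133, 88.3 and 78.9 CPM in KO and 208, 119 and 116 in control, overlapping (log2 -0.56, SE 0.31, adjusted p 1), and the log2 change was -0.23 without control replicate 1. Ndufaf1, an assembly factor of complex I, had 0 counts in all 3 controls and 43, 23 and 13 in KO, at least 25.1-fold higher against a floor of 3 counts over the controls. Its unadjusted p was 0.00329 and its adjusted p 1.

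In the 24h libraries, of the 69 tested members 27 had 0 counts in at least 1 library, against 6, 5 and 3 of 92 at 18h, 20h and 22h. Atp5a1, the partner of the catalytic ATP synthase subunit, was at 170 and 38.9 CPM in KO and 1.55 and 0 in control (log2 7.06, SE 2.90, adjusted p 0.826 in edgeR and 0.00711 in DESeq2). Sdhaf2, which attaches FAD to complex II, had 0 counts in both KO libraries and 582 and 153 in control, at least 243-fold lower (adjusted p 0.826 in edgeR and 0.008 in DESeq2). Uqcrb, which helps hold ubiquinone in complex III, was at 105 and 59.7 in KO and 6.50 and 0 in control (log2 4.66, SE 2.89, adjusted p 1), and Atp5c1, the rotating shaft of ATP synthase, at 14.1 and 0.123 against 62.0 and 160 (log2 -3.97, SE 2.36, adjusted p 1). Cox8a had no such gaps, at 1214 and 814 CPM in KO and 286 and 779 in control (log2 0.93, SE 0.68, adjusted p 1). All KO libraries were above the controls in 14 of the 69 and below in 7, against 16% and 17.3% of all genes. Single libraries set these values: the log2 change became 13.62 for Atp5a1 and 13.27 for Uqcrb without control replicate 1, and -9.74 for Atp5c1 without KO replicate 1. That of Cox8a was 0.40 without control replicate 1, 0.60 without KO replicate 1 and 1.74 without control replicate 2. The median over members was 0.39, but -0.05 without KO replicate 1, -0.01 without KO replicate 2 and 0.12 with no low-count filter.

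Other measures moved with the 24h groups, and their part in the values above was not tested. The 6 oocyte markers summed to 3230 to 4319 CPM in control and 6413 to 8762 in KO. The 6 two-cell markers summed to 1388 to 2098 in control and 2708 to 3515 in KO. Yet only 2 of the 5 two-cell markers tested had a positive change, with a median log2 change of -1.35. Of the 6 oocyte markers tested 4 had a positive change (median 0.40). Trophectoderm markers, of which 3 of 5 were listed, summed to 103 to 109 in control and 0.0707 to 6.53 in KO, and 1 of the 3 had a positive change. Mitochondrially encoded transcripts took 12.9 to 19.3% of counts in the 24h libraries, and 7877 to 10167 genes had a count, against 17125 or more in every 18h, 20h and 22h library.

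**Figure D3:**
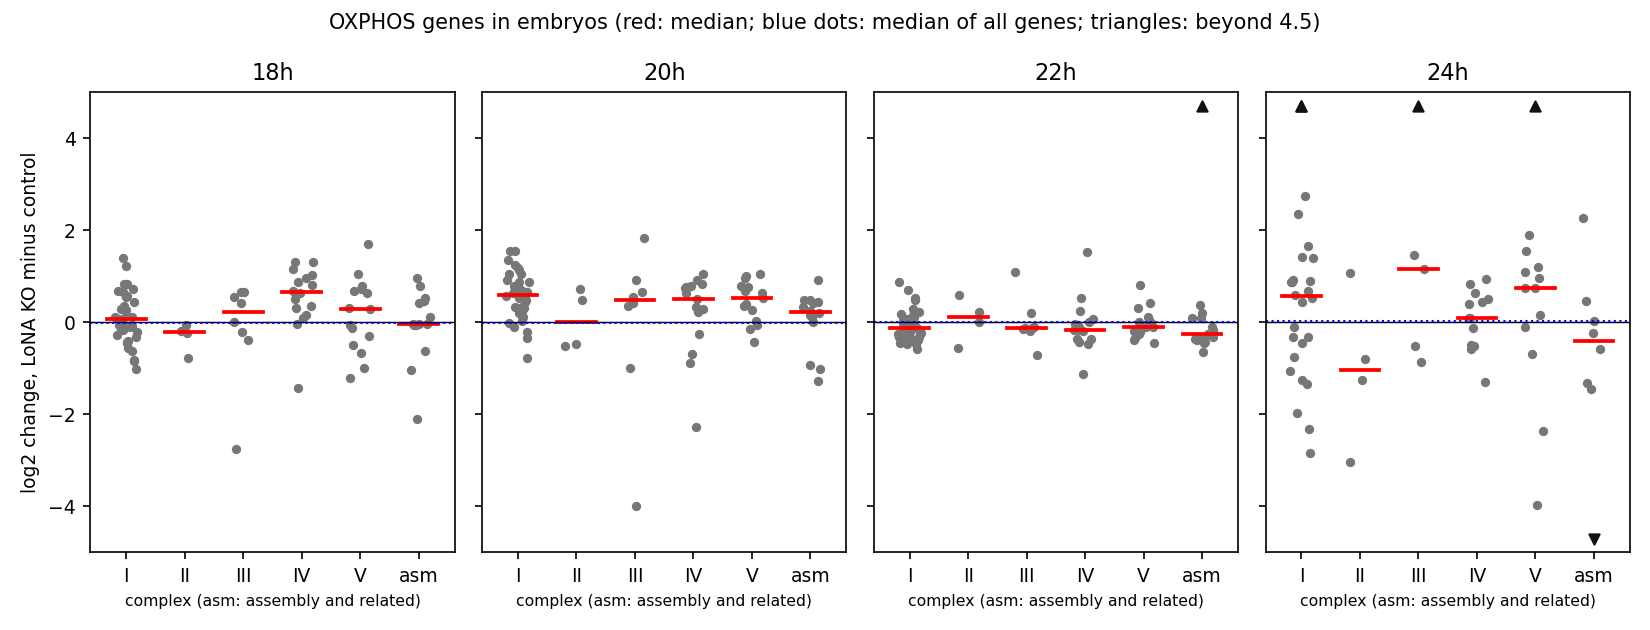
Log2 change of each tested gene, LoNA KO minus control (y), by complex (x) at 18h, 20h, 22h and 24h; grey points are genes, red bars the median of a complex, the blue dotted line the median of all genes, and triangles mark values beyond 4.5 drawn at the edge. Complex IV has its highest median at 18h (0.65), most complexes lie above 0 at 20h, and 24h has the widest spread.

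LoNA KD in the mESC was the comparison in which most of these genes differed. Of 94 tested, 82 were higher in KD and 5 lower at an adjusted p of 0.05 in edgeR, where 38.9% of all genes tested were higher and 35.3% lower (74.2% in all). DESeq2 called 78 higher and 3 lower, against 61.9% of all genes in either direction. The median log2 change was 0.53, against 0.01 over all genes. Summed CPM of all members was 10396 and 10752 in control and 14484 and 15270 in KD. The 2 columns of a group correlated at 0.998 over genes, so their p-values rest on the difference between near-identical columns and may say little about cultures. With the columns summed and a fold of at least 1.5 in place of a test, 38 members were higher and 2 lower, against 24.8% and 25.7% of all genes. With upper-quartile scaling, which moved the median of all genes to -0.18, the members' median was 0.34 and 9 were called lower.

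Complex I had 34 of 36 genes higher and none lower. Ndufs5, an accessory subunit, rose from 4.71 and 3.16 CPM to 44.0 and 48.0 (log2 3.54, SE 0.12, adjusted p 1.43e-16), the highest change in the complex. Ndufa12 (log2 1.37), Ndufa5 (1.35), Ndufb9 (1.31) and Ndufa8 (1.07), all accessory subunits, were also called higher. Of the core subunits, Ndufs1 was at 115 and 112 CPM in control and 123 and 129 in KD, and Ndufv1 at 115 and 119 against 135 and 134. Ndufa7 (122 and 118 against 111 and 116) and Ndufb2 (2.70 and 2.18 against 2.27 and 2.56) did not pass the test.

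All 4 complex II genes and all 8 complex III genes were higher. Sdhb rose from 90.2 and 92.5 CPM to 276 and 299 (log2 1.65, SE 0.05, adjusted p 4.13e-18), while its catalytic partner Sdha was at 260 and 272 CPM in control and 317 and 316 in KD. In complex III, Uqcrq, a small subunit, rose from 76.6 and 81.5 CPM to 229 and 258 (log2 1.62, SE 0.05, adjusted p 5.99e-17). The core protein gene Uqcrc1 was at 294 and 321 against 340 and 341.

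Complex V had 14 of 15 genes higher, with a median of 0.63. Atp5b was at 2242 and 2263 CPM in control and 3221 and 3342 in KD, but Atp5a1, which alternates with it in the catalytic ring, did not pass (1297 and 1300 against 1222 and 1270). Atp5k rose from 13.3 and 13.9 CPM to 29.5 and 32.3 (log2 1.18, SE 0.09, adjusted p 1.79e-10). The 3 genes of the proton-carrying c ring were all higher. Atp5g1 was at 86.0 and 92.9 CPM in control and 124 and 137 in KD, Atp5g2 at 139 and 162 against 226 and 250, and Atp5g3 at 195 and 199 against 382 and 402.

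**Figure D4:**
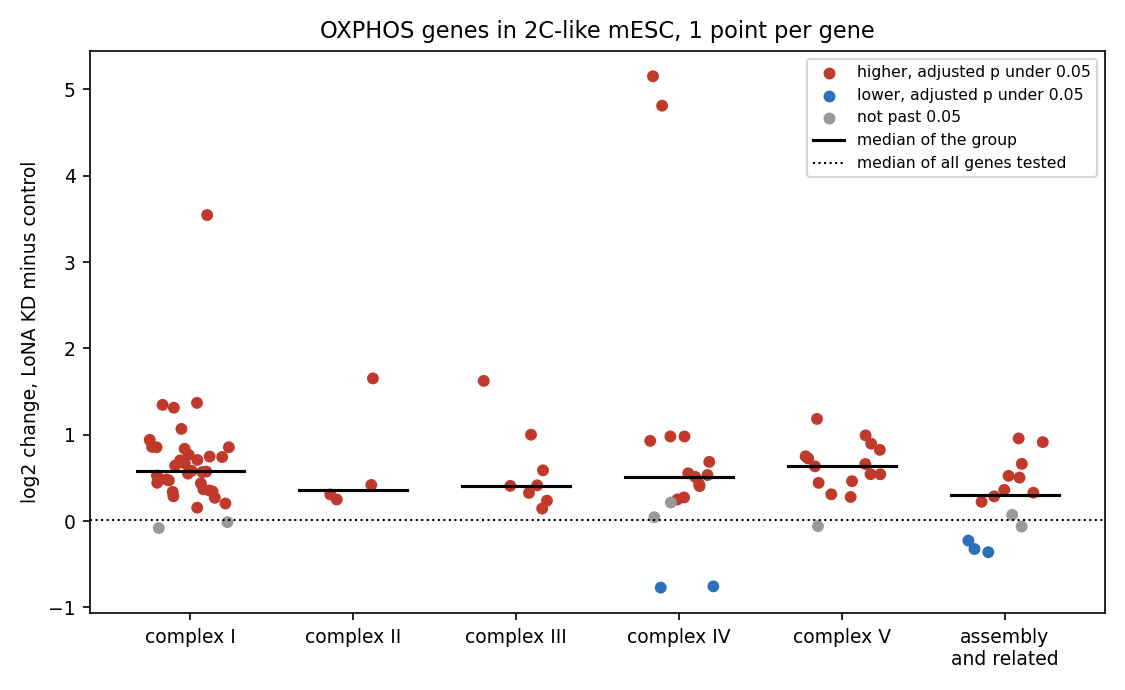
Log2 change of each tested gene, LoNA KD minus control mESC (y), by complex (x); red and blue points passed an adjusted p of 0.05 higher or lower, grey points did not, bars are the medians and the dotted line the median of all genes. Most points lie above the dotted line in every group, the medians run from 0.31 to 0.63, and Cox7b2, Cox6a2 and Ndufs5 lie far above the rest.

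Complex IV had 13 of 17 tested genes higher and 2 lower, and the 2 members of an isoform pair differed in some pairs and not in others. Cox7b2 rose from 0.459 and 0.402 CPM to 16.5 and 14.6 (log2 5.15, SE 0.23, adjusted p 1.35e-14), while Cox7b did not pass (123 and 129 against 125 and 136). Cox6a2 rose from 0 and 0.0574 CPM to 0.699 and 1.31 (log2 4.81, SE 0.85, adjusted p 3.21e-05), from 1 count in all, and the common form Cox6a1 was at 216 and 243 CPM in control and 315 and 340 in KD, also called higher. Cox6b2, the testis form, fell from 43.3 and 42.9 CPM to 25.4 and 25.1 (log2 -0.77, SE 0.07, adjusted p 4.56e-09), and Cox6b1 was called higher, at 79.7 and 89.2 against 126 and 145. Ndufa4l2, a form induced in low oxygen, fell from 66.2 and 64.1 CPM to 37.5 and 39.6 (log2 -0.76, SE 0.06, adjusted p 6.14e-10), and Ndufa4 was called higher (146 and 159 against 286 and 315). Both subunit 4 genes were higher, Cox4i1 at 189 and 181 against 267 and 269 and Cox4i2 at 4.36 and 3.73 against 7.93 and 8.04. Ndufa4l2 overlaps Shmt2 on the other strand, and whether the counting used strand is not given in the sources used here.

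**Figure D5:**
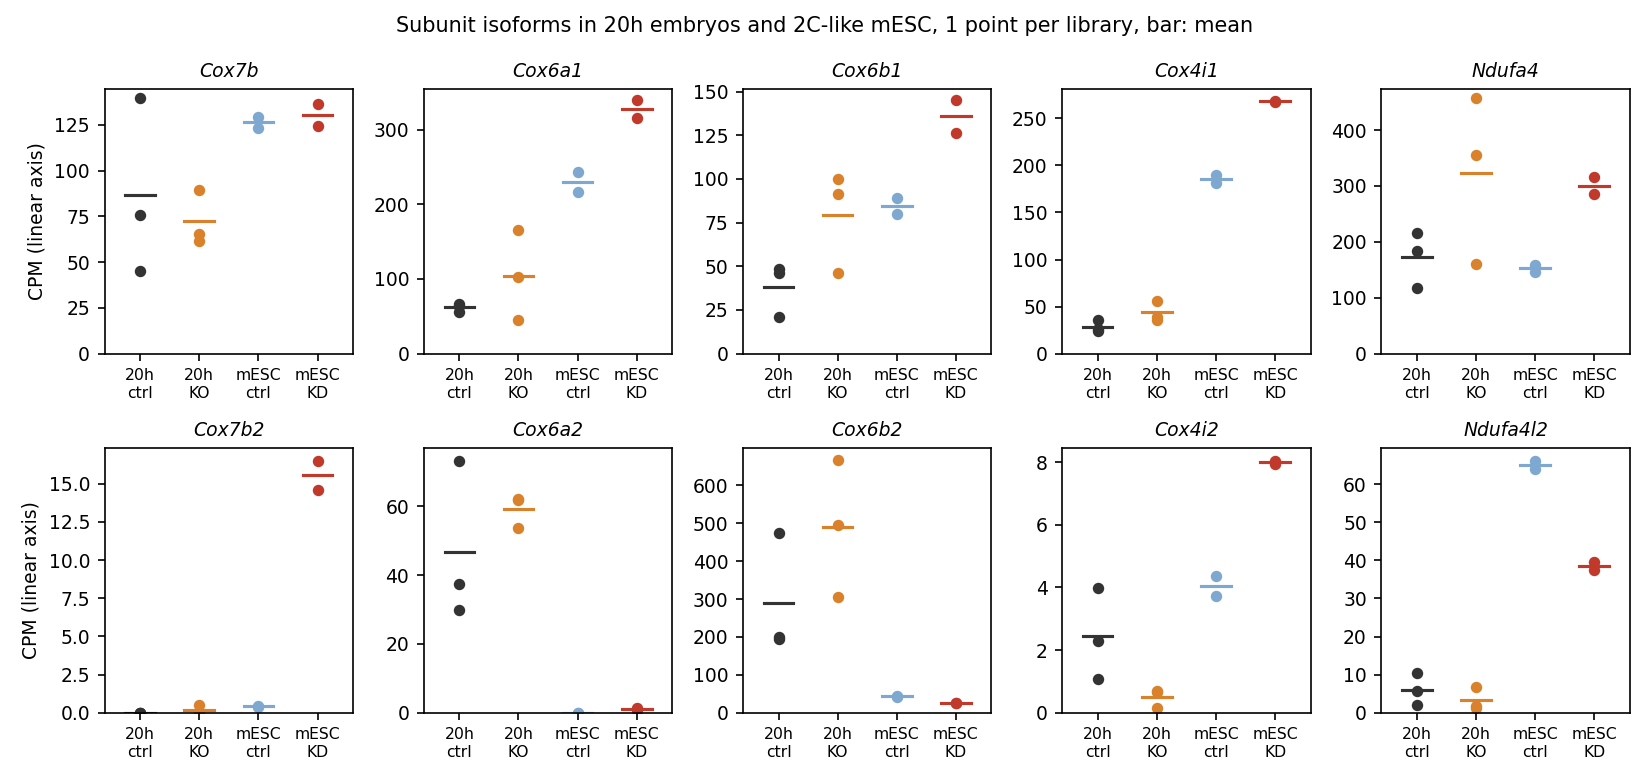
CPM (y, linear from 0, own scale per panel) of 5 complex IV isoform pairs, the common form above and the restricted form below, in 20h embryos and mESC (x), 1 point per library and a bar at the mean. In the mESC Cox7b2 is near 0 in control and 14.6 to 16.5 in KD, Cox6b2 and Ndufa4l2 are lower in KD while their common forms are higher, and Cox6a2 is at 29.9 CPM or more in every 20h library.

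The embryos used some of these isoforms at other levels, read across tables that were scaled separately. Cox6a2 was at 29.9 to 73.3 CPM in 20h controls and 0 to 0.0574 in control mESC. Cox6b2 was at 196 to 475 and 42.9 to 43.3, and Cox6b1 at 20.8 to 48.5 and 79.7 to 89.2. Cox7b2 had 10 counts in 1 control library of 18h, 1 and 7 in KO libraries of 20h, and was not tested there.

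Assembly factors and related genes were mixed, with 9 of 14 higher and 3 lower. Ndufaf2 was at 16.1 and 14.1 CPM in control and 26.1 and 30.9 in KD, and Cox7a2l, which joins complexes III and IV into supercomplexes, at 99.8 and 102 against 124 and 135. The 3 that fell were Atp5sl (log2 -0.36), Atp5s (-0.32) and Ndufaf7 (-0.23), a methyltransferase for complex I. Atp5s and Ndufaf7 were not called by DESeq2 (adjusted p 0.137 and 0.119), nor without several single columns: without control replicate 2 their adjusted p was 0.105 and 0.344 in edgeR.

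The other genes of the pathway in KD cells were counted from lists. Of all genes tested, 38.9% were called higher and 35.3% lower, and the counts below are to be read beside these shares. Of the mitochondrially encoded subunits all 11 tested were higher, with a median of 1.12. Among 14 other nuclear subunits and carriers 11 were higher and 3 lower. Slc25a4, the heart and muscle form of the ADP/ATP carrier, was at 303 ± 2.61 CPM in control and 868 ± 28.2 in KD, and cytochrome c, Cycs, at 108 ± 3.14 and 178 ± 3.63 (SD, n = 2). Its testis form Cyct was at 3.24 ± 0.772 and 1.33 ± 0.562. Other assembly genes had 18 higher and 8 lower of 34, and regulators of the pathway 10 and 4 of 17. Of these Gabpa, which binds ETS motifs, was lower (210 ± 5.48 and 128 ± 4.34), Esrra higher (27.1 ± 0.521 and 56.3 ± 1.66), and Nrf1 did not pass (67.8 ± 6.11 and 62.2 ± 0.536). The TCA cycle had 11 higher and 2 lower of 16, with a median of 0.42, and glycolysis 2 higher and 14 lower of 18, with a median of -0.51. Fibroblast markers summed to 488 to 507 CPM in control and 206 to 207 in KD, and their part in these differences was not tested.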

How the data were processed

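The authors deposited raw counts per gene for RNA and, per peak, read counts with a total of reads per column. For RNA, HTSeq 0.6.0, HISAT2 2.1.0 and Bowtie2 2.2.3 stand in the submitters' processing notes, and for chromatin bcl2fastq 2.2, Bowtie2 2.1.0 and MACS2 2.1.1, with build mm10. Whether counting used strand, and whether peaks were called on pooled samples, is not given in the sources used here.

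From the deposited counts, each RNA table was fitted with edgeR 4.0.16 (TMM factors, filterByExpr, quasi-likelihood test, Benjamini-Hochberg adjustment over all genes tested, threshold 0.05). The controls' times were compared in 1 fit over the 18h, 20h and 22h tables, 6 groups, which also tested whether the KO effect differed between times. DESeq2 1.42.0 was the alternative. Replicates are numbered by column order, since columns are not tied to the labelled replicates. At 24h columns correlating above 0.99 were summed. The mESC columns, at 0.998 within each group, were kept apart, because summing them would leave 1 library per group and no test. A promoter peak overlaps 1000 bases either side of the gene start in the RNA tables, and RPM uses the deposited totals. Intervals of a log2 ratio are exact binomial (Clopper-Pearson, 95%) on the split of reads between both columns. The histone columns bear initials only, and which of them is KO was taken from the ratio column beside them and the labels. The edgeR fits were tested on simulated counts, with a fixed spread between libraries that was not estimated from these data. The DESeq2 fits and the peak and sequence steps were not tested on simulated data.

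The rule for named genes took members past the threshold (in mESC the 10 largest rises and falls). It also took the highest and lowest log2 change and the 2 highest mean CPM of each complex, isoform families and a catalytic core. For chromatin it took members with H3K27me3 or AcNPM1 peaks and the 5 with the highest control RPM of H3K4me3. Any other gene named was chosen after its values were seen. The members and lists were chosen with earlier results of these data known. Lists reported were mitochondrially encoded subunits, other subunits and carriers, other assembly genes, regulators, the TCA cycle and glycolysis. Marker lists reported were those of two-cell embryo, oocyte, stem cell, trophectoderm and fibroblast, not each in every comparison. Of the 96 genes 34 overlap another gene, 30 on the other strand. Alternatives were other scalings, no low-count filter, a threshold of 0.01, tables without mitochondrially encoded transcripts, and each library left out. A result for 1 gene is not reported here.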

Additional observations from a re-analysis of the deposited data

Results flagged for a closer look

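In 3 members every KO library lay on 1 side of every control at 1 time and on the other side at 24h. How many of all genes did so was not counted. With 2 libraries per group at 24h, 16% of all genes had both KO libraries above both controls and 17.3% below, and the shares were 5.79% and 7.04% at 18h and 4.65% and 5.22% at 20h. The difference between the times was not tested, since the 24h table is in no joint fit, and no change at either time passed an adjusted p of 0.05 in edgeR. Ndufb8, an accessory subunit of complex I, had a KO minus control log2 change of 1.25 at 20h and -2.84 at 24h, which differ by 4.09. Its 24h values were 0 and 1.97 CPM in KO and 4.27 and 9.98 in control, and its 24h change was -9.73 without KO replicate 2 and -1.87 without KO replicate 1. Cox5b had 1.03 at 18h and -0.52 at 24h, which differ by 1.55, with 166 and 149 CPM in KO and 218 and 234 in control at 24h. Atp5g2, a gene of the c ring of ATP synthase, had 0.95 at 20h and -2.36 at 24h, which differ by 3.31. Its 24h values were 0 and 9.30 CPM in KO and 19.9 and 27.8 in control, and its 24h change was -11.47 without KO replicate 2 and -1.39 without KO replicate 1.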

How the results depend on the processing

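No paired analysis was possible because the columns carry none of the labels' replicate numbers. No log2 change printed for a single gene changed sign under the alternatives run. Genes given by CPM alone, such as Cox7b and Uqcrc1 in the mESC, were not in that check. Of the medians over members, 2 changed sign. The 22h median of -0.13 became 0.11 without control replicate 3, and the 24h median of 0.39 became -0.048 and -0.013 without either KO library. At 24h, DESeq2 called 2 members (1 higher, 1 lower) and the 8 columns taken as separate libraries 3 (2 higher, 1 lower), where edgeR called none, and the median ran from -0.048 to 0.55 with 1 library left out, which assumes that the lone library varies like the other group. In the mESC, 5 lower calls became 3 at a threshold of 0.01, 3 with DESeq2 and 3 with no low-count filter, and 9 with upper-quartile factors (median 0.34). They were 3 to 4 with 1 column left out. With columns summed and a fold of 1.5, an alternative chosen after seeing the data, 40 passed (38 higher, 2 lower). For 20h minus 18h, the count of 0 became 20 with DESeq2, 3 without mitochondrially encoded transcripts, and 0 to 6 with 1 library left out. For 22h minus 20h, 3 became 14 with DESeq2, 6 with DESeq2 size factors and 0 to 6 with 1 library left out. For 22h minus 18h, 2 became 1 without the KO libraries and 0 to 2 with 1 library left out. DESeq2 called 1 member for the KO effect differing between times. AcNPM1 promoter peaks at 2500 bases were 1 and 2, in place of 0 and 1. The cause was not tested for any of these. With 2 or 3 libraries per group the spread is poorly known, and zeros at 24h and 1 column per chromatin condition limit what can be said of single genes.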
